A study of Homo sapiens with 36 samples.

Results

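The genes described here are the Wnt ligands, the Frizzled receptors and the coreceptors, secreted inhibitors, feedback genes, core complex members and TCF/LEF transcription factors that work with them. They were taken by symbol: every WNT and FZD gene of the count table and 20 further named genes gave 49 of 26475 genes. By role these were 19 ligands, 10 Frizzled receptors, 2 coreceptors, 3 R-spondin receptors, 3 secreted inhibitors, 5 feedback inhibitors inside or on the cell, 3 core complex members and 4 TCF/LEF factors. Total RNA was extracted and sequenced in 36 libraries from 3 human cancer lines. MDA-MB-468 comes from a basal-like breast cancer, PANC-1 from a carcinoma of the pancreatic duct and WiDr from a colorectal cancer, and WiDr carries truncating mutations of APC. In each line, cells with a non-silencing hairpin in the lentiviral vector pGIPZ were the control for cells with hairpin 1 or hairpin 2 against 1 target gene. In WiDr a further control with a non-target guide RNA stood beside cells with guide 1 or guide 2 against the same target.

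Each of the 4 experiments held 9 libraries, 3 numbered replicates in each of 3 arms, and all lines were grown in the same serum-containing medium. Nothing says that replicates came from separate cultures, so p-values measure the spread between these libraries, which may be technical. The labels do not say whether an arm was a pool of cells or 1 clone. For 4 of the 6 targeting guide libraries the title and the genotype field name different guides. The titles were used for every value with a guide. Grouped by the genotype field, 9 of the 25 member calls with guide 1 were kept. That grouping mixes libraries of both titles as guide 1. It leaves 1 library with guide 2, so whether calls hold there cannot be read. Replicates 2 and 3 titled guide 1, which the genotype field separates, were the most alike pair of replicates in any arm. Replicate 3 titled guide 2 stood apart from its arm, with a chi-square per degree of freedom of 88.4 and 71.5 against 9.53 between the others. Its ribosomal RNA share was 10.0%, against 3.78% and 4.31% in those. DKK1, given below, also grouped by title. The guide calls rest on the titles, and which label is right was not tested. RNA of the targeted gene lay below all controls in every library of 7 of the 8 targeting arms. In PANC-1 with the second hairpin 0 of 3 libraries lay below the controls, so this check does not bear out that label. These are called the libraries labelled hairpin 2, and no direction seen in them is tied to loss of the target. No member differed between them and PANC-1 hairpin 1 in the main fit, as given below. Directions with PANC-1 hairpin 1 are therefore not tied to loss of the target either. Rounded expected counts totalled 28371119 to 49237321 per library. The share of counts on ribosomal RNA genes was 4.61% to 9.60% in the PANC-1 controls against 0.838% to 2.60% in the other 6 PANC-1 libraries, and 5.38% to 10.2% with WiDr hairpin 2 against 1.27% to 2.71% in the other 6 WiDr hairpin libraries. In MDA-MB-468 (2.23% to 8.49%) and with the guides (3.78% to 10.0%) the arms overlapped. Defining markers fitted the labels only in part. KRT5 stood at 1652 CPM (expected counts scaled to TMM-adjusted library size) in the MDA-MB-468 controls and KRT20 at 704 and 264 CPM in the hairpin and guide controls of WiDr, where CDX1, CDX2 and CDH17 stayed at or under 2.90 CPM. PANC-1 had KRT19 at 2162 CPM and PDX1 at 8.19 CPM, with GATA6 under 0.1 CPM. The leukocyte marker PTPRC and the fibroblast marker DCN were at or under 0.0497 CPM in every control group. Other markers of these lists were not silent. The leukocyte marker CD14 stood at 19.9 CPM in the MDA-MB-468 controls. The fibroblast marker COL1A1 stood at 9.55 CPM there, 13.4 CPM in PANC-1 and 3.11 CPM in the WiDr guide control. LUM, also a fibroblast marker, stood at 2.33 CPM in the WiDr hairpin control.

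Wnt proteins are secreted lipid-modified ligands that bind Frizzled receptors together with the coreceptors LRP5 and LRP6. Without them a complex of APC, AXIN1 and kinases marks beta-catenin, the product of CTNNB1, for destruction. With them beta-catenin accumulates and works with TCF/LEF factors at target genes, among which are inhibitors of the pathway itself: AXIN2, NKD1, the receptor-removing ligases RNF43 and ZNRF3, and in many cells DKK1 and NOTUM. In the intestinal epithelium this circuit maintains the stem cells, and truncation of APC leaves it active in most colorectal cancers.

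The lines differed in which members they used at rest. Levels between genes are given as CPM per kb of exon, mean ± SD of the 3 control libraries. WNT6, a ligand, was the highest ligand in MDA-MB-468 at 70.0 ± 13.3 CPM per kb, against 5.88 ± 0.951 in PANC-1 and 0.0756 ± 0.0403 in the WiDr hairpin control. WNT7B, a ligand with roles in epithelial development, was the highest ligand in the other lines, at 15.2 ± 2.24 CPM per kb in PANC-1 and 10.8 ± 0.375 and 8.15 ± 0.761 in the hairpin and guide controls of WiDr. It reached 17.1 ± 0.0251 in MDA-MB-468, and the level in PANC-1 overlapped with that. Next came WNT10A (8.44 ± 0.864 CPM per kb) in MDA-MB-468 and WNT6, WNT10A (3.79 ± 0.248) and WNT5B (3.53 ± 0.678) in PANC-1, where the neighbours WNT10A and WNT5B did not differ beyond their spread. In WiDr WNT11, a ligand best known outside the beta-catenin branch, followed at 3.65 ± 0.222 and 4.57 ± 0.0910 CPM per kb, and WNT10A at 2.16 ± 0.284 and 1.96 ± 0.108.

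Among receptors, FZD2 and FZD7 led in PANC-1 (19.1 ± 0.458 and 14.0 ± 0.387 CPM per kb), and FZD6 in MDA-MB-468 (23.9 ± 4.12) and WiDr (14.9 ± 0.897 and 14.8 ± 0.981). The coreceptor LRP5 was higher per kb than LRP6 in every control group, for example 74.3 ± 4.39 against 6.34 ± 0.299 in the WiDr hairpin control. RNF43 stood at 0.454 ± 0.0913 CPM per kb in MDA-MB-468, 0.875 ± 0.152 in PANC-1 and 23.7 ± 1.06 and 37.8 ± 0.794 in WiDr. AXIN2, a scaffold of the destruction complex that is itself a target gene, stood at 6.73 ± 1.17, 0.119 ± 0.0205, 8.41 ± 0.176 and 15.5 ± 0.509 CPM per kb in the same order. LGR5, an R-spondin receptor and intestinal stem cell marker, had no count in the MDA-MB-468 libraries and stood at 0.0312 ± 0.0166 CPM per kb in PANC-1 and 0.752 ± 0.0585 and 1.49 ± 0.132 in WiDr. DKK1, which blocks LRP5 and LRP6 from outside the cell, went the other way, with 314 ± 51.5 CPM per kb in PANC-1 against 12.3 ± 1.74 in MDA-MB-468 and 7.35 ± 0.538 and 6.34 ± 0.231 in WiDr. DKK3, a secreted relative of DKK1, stood at 11.7 ± 0.531 CPM per kb in PANC-1 and at or under 0.0083 elsewhere.

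**Figure D1:**
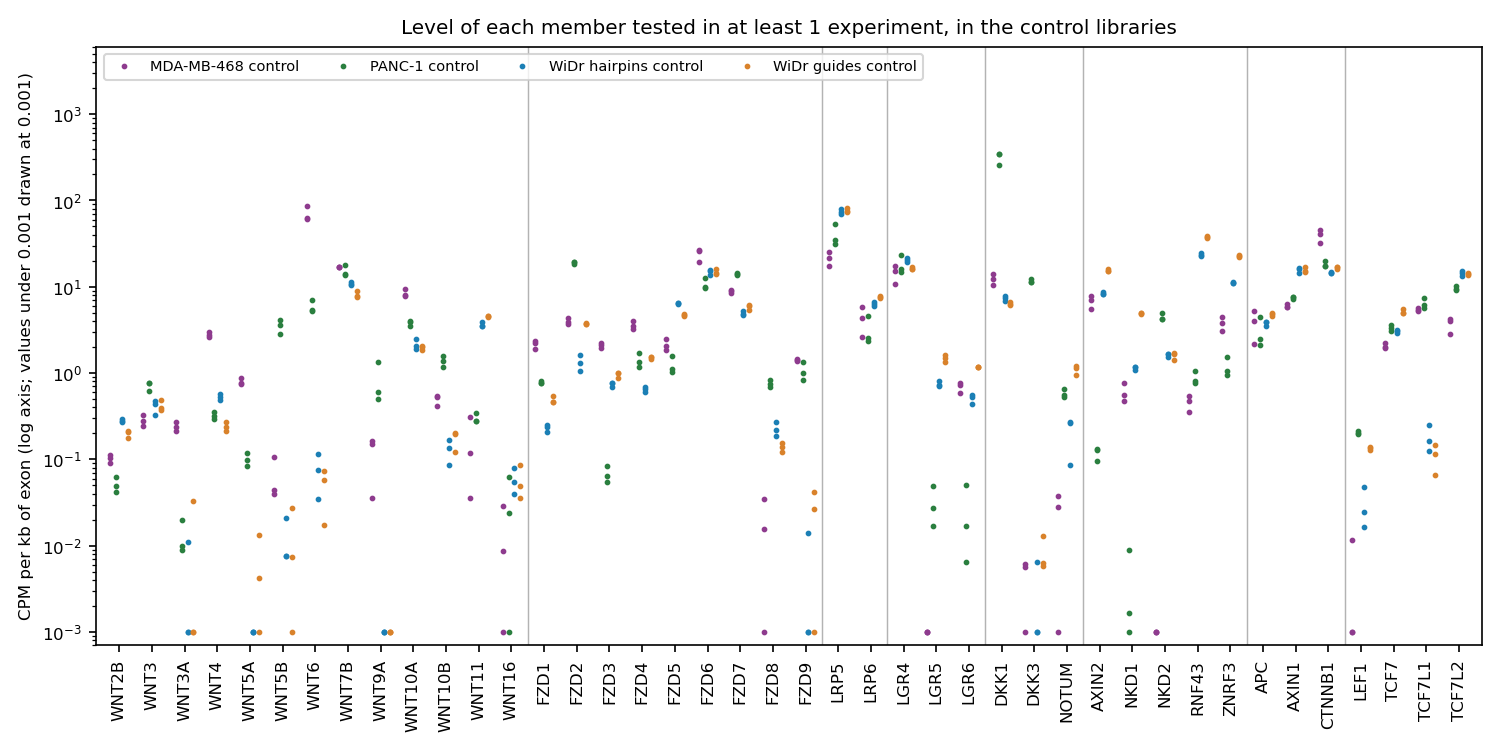
Level of each member that was tested in at least 1 experiment, in CPM per kb of exon on a log axis, with 1 point per control library and grey lines between the roles. AXIN2 and FZD3 are low in PANC-1 and DKK1 is high there, while RNF43 and ZNRF3 are highest in WiDr.

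Tests between the controls were made in 1 fit of all 12 control libraries. Some of the 41 tested members passed the filter on low counts only through a line in which they were high. DKK3 is an example, at 59.2 CPM in PANC-1 and at most 0.042 CPM in the other controls. Such members had to differ between lines with and without them. The counts and shares below hold them and are a description. PANC-1 and MDA-MB-468 differed in 34 of 41 tested members (82.9%), 18 higher in PANC-1 and 16 lower, where 72.4% of all genes passed (36.5% higher, 36% lower). The WiDr hairpin control differed from MDA-MB-468 in 37 of 41 (90.2%; 18 higher, 19 lower; all genes 74.7%, of which 36.8% higher and 38% lower) and from PANC-1 in 37 (90.2%; 16 higher, 21 lower; all genes 75.1%, with 36.5% higher and 38.6% lower). AXIN2 was lower in PANC-1 than in MDA-MB-468 by a log2 difference of -5.81 (SE 0.165, edgeR adjusted p = 3.60e-11), and higher in WiDr than in PANC-1 by 6.13. RNF43 was higher in WiDr than in MDA-MB-468 by 5.70 (SE 0.161, edgeR adjusted p = 4.31e-11). DKK1 was higher in PANC-1 than in MDA-MB-468 by 4.67 (SE 0.150, edgeR adjusted p = 9.13e-11).

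The 2 WiDr controls, which carry a non-silencing hairpin and a non-target guide, also differed. Of 41 members 17 passed (14 higher with the guide control, 3 lower), or 41.5% against 26.4% of all genes (13.6% higher, 12.8% lower), and the median log2 difference was 0.26 over the members and 0 over all genes. NKD1, which binds and restrains Dishevelled, stood at 18.2, 19.9 and 19.8 CPM in the hairpin control libraries and 87.4, 84.4 and 86.6 CPM in the guide control libraries, a log2 difference of 2.11 (SE 0.199, edgeR adjusted p = 3.04e-05). The guide control libraries were all higher, without overlap. AXIN2 (0.88), RNF43 (0.68), ZNRF3 (1.03), LGR5 (0.99), LEF1 (2.16), TCF7 (0.75) and NOTUM (2.39) were also higher in the guide control. DKK1 did not pass (-0.21). Construct and culture cannot be told apart here, and fewer cells of a kind and less RNA per cell cannot be told apart in such bulk samples.

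Of the promoters that RefSeq gives (GRCh38.p14; 250 bases before to 50 after a start), 44 windows matched 34 of the 49 members, and AXIN2, NKD1, LGR5, ZNRF3, NOTUM and WNT11 had none. The letters CTTTGAA or CTTTGAT, a form of the TCF/LEF site, were searched on both strands. They occurred in 1 of the 44 windows (2.27%), that of DKK1, against 6.86% of all 35116 windows. The 250 bases before the DKK1 start (chr10:52314031-52314280, plus strand) are shown because they hold that match, in capitals, 95 bases before the start. The 250 bases before a start of TCF7 (chr5:134123368-134123617, plus strand) are shown beside them. TCF7 had no match to the searched letters and moved in 3 of the 4 experiments. The letters CTTTGTT were not searched. The DKK1 bases hold them and the TCF7 bases hold their reverse complement, aacaaag, so a window without a match may hold other forms of the site. A match is a description of letters and says nothing about binding.
DKK1: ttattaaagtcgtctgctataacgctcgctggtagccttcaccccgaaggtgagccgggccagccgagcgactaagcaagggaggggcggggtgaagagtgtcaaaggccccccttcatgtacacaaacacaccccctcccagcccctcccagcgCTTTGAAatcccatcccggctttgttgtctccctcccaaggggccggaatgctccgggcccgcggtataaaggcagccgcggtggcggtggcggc
TCF7: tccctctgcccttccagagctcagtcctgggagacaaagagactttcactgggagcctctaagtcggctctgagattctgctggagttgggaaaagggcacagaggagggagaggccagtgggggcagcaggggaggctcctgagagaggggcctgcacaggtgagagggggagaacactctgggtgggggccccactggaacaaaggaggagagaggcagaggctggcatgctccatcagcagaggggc

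Each construct was then compared with its own control, to ask which members move with each hairpin or guide. Both constructs of an experiment share their 3 control libraries, so their fold changes are not independent and are given side by side. The threshold was an adjusted p of 0.05 in edgeR's quasi-likelihood test, with Benjamini-Hochberg adjustment over every gene tested, and genes beyond it are said to have passed. Too few counts for a test in any experiment were found for WNT1, WNT2, WNT7A, WNT8A, WNT8B, WNT9B and FZD10, which had at most 11 counts in a library. The number tested was 35 in MDA-MB-468, 38 in PANC-1, 32 with the WiDr hairpins and 34 with the WiDr guides, and 26 members were tested in every experiment.

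**Figure D2:**
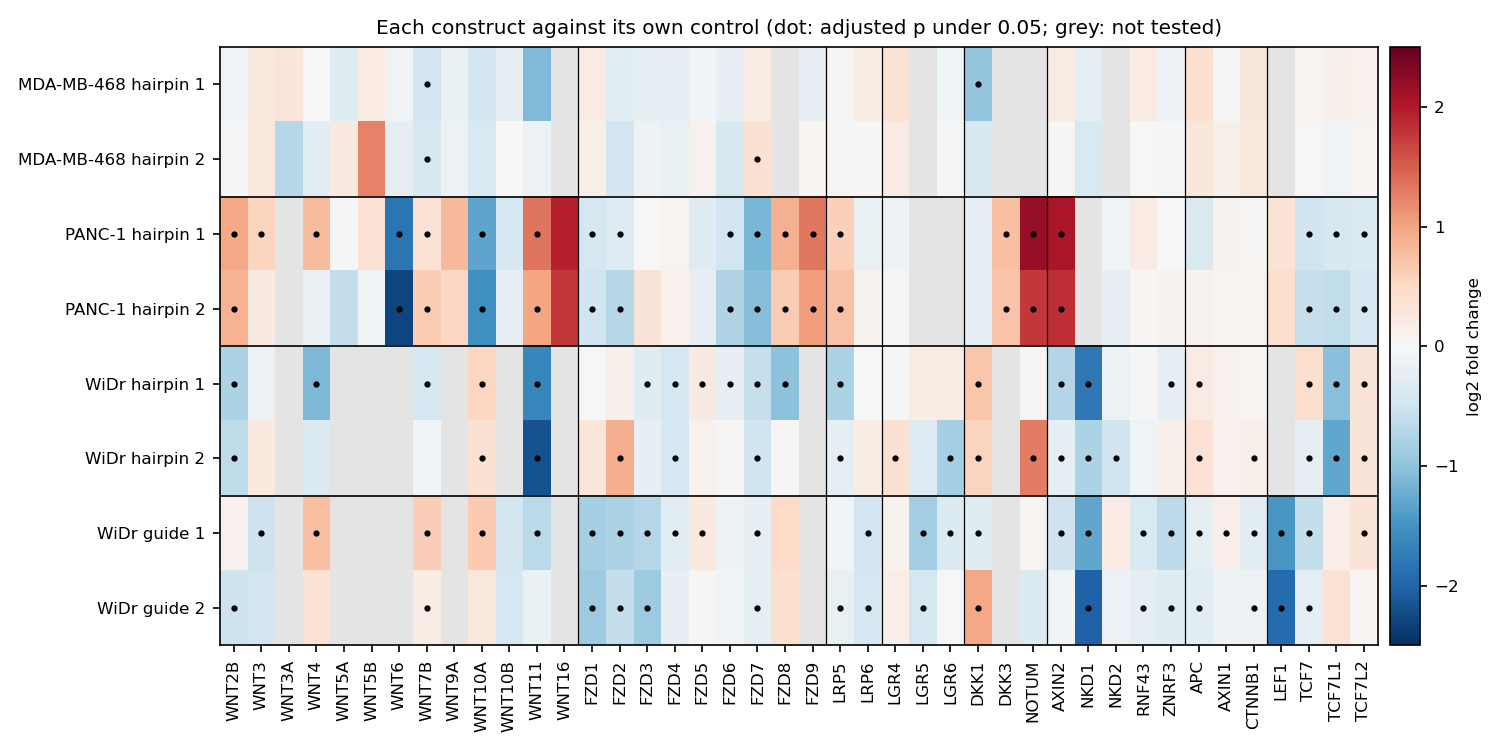
Log2 fold change of each tested member with each construct against its own control, with red higher, blue lower, grey not tested and a dot where the adjusted p was under 0.05. MDA-MB-468 carries 4 dots in all, NOTUM and AXIN2 are the darkest red in PANC-1, and the WiDr guide 1 and guide 2 rows are mostly blue.

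In MDA-MB-468 few members moved. With hairpin 1, 2 of 35 passed, both lower (5.71%, all genes 2.27%, of which 1.24% higher and 1.03% lower), and with hairpin 2 also 2, 1 higher and 1 lower (5.71%, all genes 3.49%, of which 1.69% higher and 1.8% lower). The median log2 fold change was -0.06 and -0.00 over the members and -0.01 and 0.00 over all genes. Control replicate 1 stood apart from the other controls, with a chi-square per degree of freedom of 170 and 142 against them and 24.3 between those. Summed markers moved with the arms (controls, hairpin 1, hairpin 2): the 4 general epithelial genes at 3142 to 4298, 2751 to 2874 and 2527 to 3008 CPM, the 6 basal genes at 2720 to 3909, 4054 to 4703 and 3910 to 5154, the 5 fibroblast genes at 8.49 to 11.4, 7.50 to 9.68 and 4.99 to 7.11, and the endothelial genes at 5.51 to 6.24, 3.06 to 3.94 and 1.79 to 2.62. Their part in the results was not tested. WNT7B, the ligand second in level there, read 90.6, 88.3 and 87.8 CPM in the controls, 65.3, 61.6 and 64.7 CPM with hairpin 1 and 68.3, 64.7 and 68.8 CPM with hairpin 2. WNT7B fell, with log2 fold changes of -0.48 (SE 0.0645, edgeR adjusted p = 0.00701) with hairpin 1 and -0.40 (SE 0.0644, edgeR adjusted p = 0.0118) with hairpin 2. All 6 libraries with a targeting hairpin lay below the 3 controls. DKK1 read 32.3, 23.7 and 27.8 CPM in the controls, 13.0, 15.8 and 13.6 CPM with hairpin 1 and 21.4, 19.3 and 22.6 CPM with hairpin 2. It fell with hairpin 1 (log2 fold change -0.98, SE 0.130, edgeR adjusted p = 0.00696), while hairpin 2 gave -0.40 (SE 0.129, edgeR adjusted p = 0.147). Neither arm overlapped with the controls. FZD7, a receptor, read 34.2, 36.7 and 34.8 CPM in the controls, 41.8, 39.6 and 39.1 CPM with hairpin 1 and 45.1, 48.6 and 44.3 CPM with hairpin 2. Its log2 fold change was 0.19 (SE 0.0729, edgeR adjusted p = 0.295) with hairpin 1 and it rose with hairpin 2, log2 fold change 0.38 (SE 0.0729, edgeR adjusted p = 0.0242). With hairpin 2 fitted alone with its control, neither WNT7B nor FZD7 passed. The control libraries were the lowest for FZD7.

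The feedback genes of MDA-MB-468 did not pass. AXIN2 read 29.9, 41.5 and 36.9 CPM in the controls, 39.7, 41.5 and 42.5 CPM with hairpin 1 and 37.6, 38.1 and 34.8 CPM with hairpin 2, with overlap between controls and each hairpin and log2 fold changes of 0.19 and 0.03 (edgeR adjusted p = 0.589 and 0.982). NKD1 (-0.24 and -0.37), RNF43 (0.20 and 0.01), ZNRF3 (-0.15 and -0.04) and TCF7 (0.05 and -0.00), the last a TCF/LEF factor, also had overlapping arms and adjusted p of at least 0.636. LGR5 had no count, and LEF1 and NOTUM had at most 2 and 4 counts in a library. The ligand WNT6, the highest in this line, gave -0.09 and -0.24 and did not pass. WNT10A gave -0.45 and -0.38, below the controls in every library but not passing. No member passed between the hairpins (all genes 0.437%, of which 0.191% higher and 0.246% lower), where 7 had an unadjusted p under 0.05 and DESeq2 called 1. These calls depend on the fit and on single libraries. Without hairpin 1 replicate 3 none of the 2 calls with hairpin 1 held and without replicate 2 of that arm 1 did, and the count with hairpin 2 was 0 without hairpin 2 replicate 1 or control replicate 3, 1 without replicate 2 or 3 of either hairpin and 4 without control replicate 1.

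In PANC-1 about as many members rose as fell, and changes were larger. With hairpin 1, 20 of 38 passed (11 higher, 9 lower), or 52.6% against 30.2% of all genes (16.2% higher, 14% lower). In libraries labelled hairpin 2, 18 passed (9 higher, 9 lower), or 47.4% against 33.4% (16.7% higher, 16.7% lower). The median size of the log2 fold change was 0.40 and 0.50 over the members and 0.29 and 0.32 over all genes, and the signed medians were 0.01 and 0.07 against -0.02 and -0.00. The ribosomal RNA share was higher in the controls, as given above. With these genes taken out the counts were again 20 and 18. That step leaves the counts of every other gene as they were, so it cannot show what else goes with the share. Control replicate 1 stood apart from the other controls, with a chi-square per degree of freedom of 147 and 188 against 27.4 between those. Hairpin 1 replicate 1 stood apart in its arm (87.3 and 83.9 against 7.37). Summed basal markers read 202, 48.0 and 56.5 CPM in the controls, 57.7, 171 and 167 with hairpin 1 and 186, 171 and 189 in libraries labelled hairpin 2. In the controls this sum was mostly EGFR, at 93.7 ± 82.8 CPM (SD, n = 3). KRT5, KRT14, KRT6B and GABRP were near 0 there, so the sum does not describe basal keratins. Its part in the results was not tested. Summed fibroblast markers (5 genes, COL1A2 and DCN near 0) were 10.6 to 21.3 CPM in the controls, 40.0 to 47.6 with hairpin 1 and 17.9 to 21.1 in libraries labelled hairpin 2, and the 4 general epithelial markers 6297 to 7674, 4800 to 5655 and 4182 to 4398 CPM, and their part in the results was not tested.

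Of the 3 secreted inhibitors 2 passed in both arms, both higher, and of 4 tested feedback inhibitors 1 did, AXIN2, higher. These are 66.7% and 25% in each arm, where 30.2% and 33.4% of all genes passed. NOTUM (chromosome 17, 81952507 to 81961840), a secreted enzyme that removes the lipid from Wnt proteins, read 1.57, 2.00 and 1.71 CPM in the controls, 7.91, 8.10 and 7.94 CPM with hairpin 1 and 6.04, 6.28 and 5.75 CPM in libraries labelled hairpin 2. NOTUM rose, with log2 fold changes of 2.18 (SE 0.119, edgeR adjusted p = 4.01e-06) with hairpin 1 and 1.78 (SE 0.119, edgeR adjusted p = 1.11e-05) in libraries labelled hairpin 2. Libraries of the 3 arms did not overlap, with hairpin 1 highest. AXIN2 (chromosome 17, 65528563 to 65561647) read 0.693, 0.508 and 0.679 CPM in the controls, 2.58, 2.70 and 2.48 CPM with hairpin 1 and 2.33, 2.25 and 2.21 CPM in libraries labelled hairpin 2. Its log2 fold changes were 2.03 (SE 0.162, edgeR adjusted p = 3.44e-05) with hairpin 1 and 1.84 (SE 0.163, edgeR adjusted p = 5.11e-05) in libraries labelled hairpin 2. It rose without overlap from a level that was the lowest of the 3 lines and stayed under 3 CPM. DKK3 rose (log2 fold changes 0.75 and 0.72), from 59.8 ± 3.18 to 100.5 ± 3.31 and 98.5 ± 2.80 CPM (SD, n = 3). DKK1, at 556 to 778 CPM the most abundant member per kb here, gave -0.20 and -0.25 and did not pass (edgeR adjusted p = 0.316 and 0.197). Control replicate 1 had the lowest DKK1 of the controls and overlapped with both other arms, and without it DKK1 passed as lower with each (-0.36 and -0.41). RNF43 (0.21 and 0.06) and ZNRF3 (-0.01 and 0.09) overlapped with the controls and did not pass either, nor did NKD2 (-0.12 and -0.23). NKD1 and LGR5 had at most 14 counts in a library and were not tested.

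The ligands changed places. WNT6 read 8.88, 9.39 and 12.1 CPM in the controls, 3.27, 3.29 and 2.07 CPM with hairpin 1 and 2.63, 1.96 and 1.61 CPM in libraries labelled hairpin 2. WNT6 fell, with log2 fold changes of -1.82 (SE 0.229, edgeR adjusted p = 0.000465) with hairpin 1 and -2.29 (SE 0.236, edgeR adjusted p = 0.000133) in libraries labelled hairpin 2. WNT10A read 13.1, 13.9 and 12.3 CPM in the controls, 4.67, 5.53 and 5.46 CPM with hairpin 1 and 4.42, 5.01 and 4.17 CPM in libraries labelled hairpin 2, and fell, with log2 fold changes of -1.32 (SE 0.115, edgeR adjusted p = 4.98e-05) with hairpin 1 and -1.53 (SE 0.116, edgeR adjusted p = 2.32e-05) in libraries labelled hairpin 2. For both ligands all libraries of both hairpin arms lay below all controls. These genes are neighbours on the plus strand of chromosome 2, WNT6 at 218859821 to 218874233 and WNT10A at 218880363 to 218899581 (GENCODE 29, hg38).
WNT11 read 0.667, 0.688 and 0.857 CPM in the controls, 1.86, 1.71 and 2.04 CPM with hairpin 1 and 2.04, 1.47 and 0.862 CPM in libraries labelled hairpin 2, and rose, with log2 fold changes of 1.34 (SE 0.294, edgeR adjusted p = 0.00833) with hairpin 1 and 0.99 (SE 0.298, edgeR adjusted p = 0.0309) in libraries labelled hairpin 2. The library labelled hairpin 2 replicate 3 was close to the highest control for WNT11. WNT2B, a ligand of the beta-catenin branch, read 0.770, 0.628 and 0.532 CPM in the controls, 1.07, 1.34 and 1.37 CPM with hairpin 1 and 1.30, 1.24 and 1.01 CPM in libraries labelled hairpin 2. WNT2B rose, with log2 fold changes of 0.96 (SE 0.219, edgeR adjusted p = 0.00994) with hairpin 1 and 0.87 (SE 0.220, edgeR adjusted p = 0.0150) in libraries labelled hairpin 2, without overlap. WNT2B shares 2661 exonic bases with ST7L on the opposite strand, and the strand setting of the counting is not given, so reads of the pair cannot be told apart. WNT7B rose (log2 fold change 0.36) with hairpin 1, overlapping with the controls, and rose (log2 fold change 0.63) in libraries labelled hairpin 2. WNT3 (0.56) and WNT4 (0.79) rose with hairpin 1 and gave 0.23 and -0.18 in libraries labelled hairpin 2, without passing. Over the 12 tested ligands 5 rose and 2 fell with hairpin 1 and 3 rose and 2 fell in libraries labelled hairpin 2. These are 58.3% and 41.7%, where 30.2% and 33.4% of all genes passed. WNT5A, WNT5B, WNT9A, WNT10B and WNT16 did not pass, and WNT3A was tested in MDA-MB-468 alone, where it did not pass either.

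**Figure D3:**
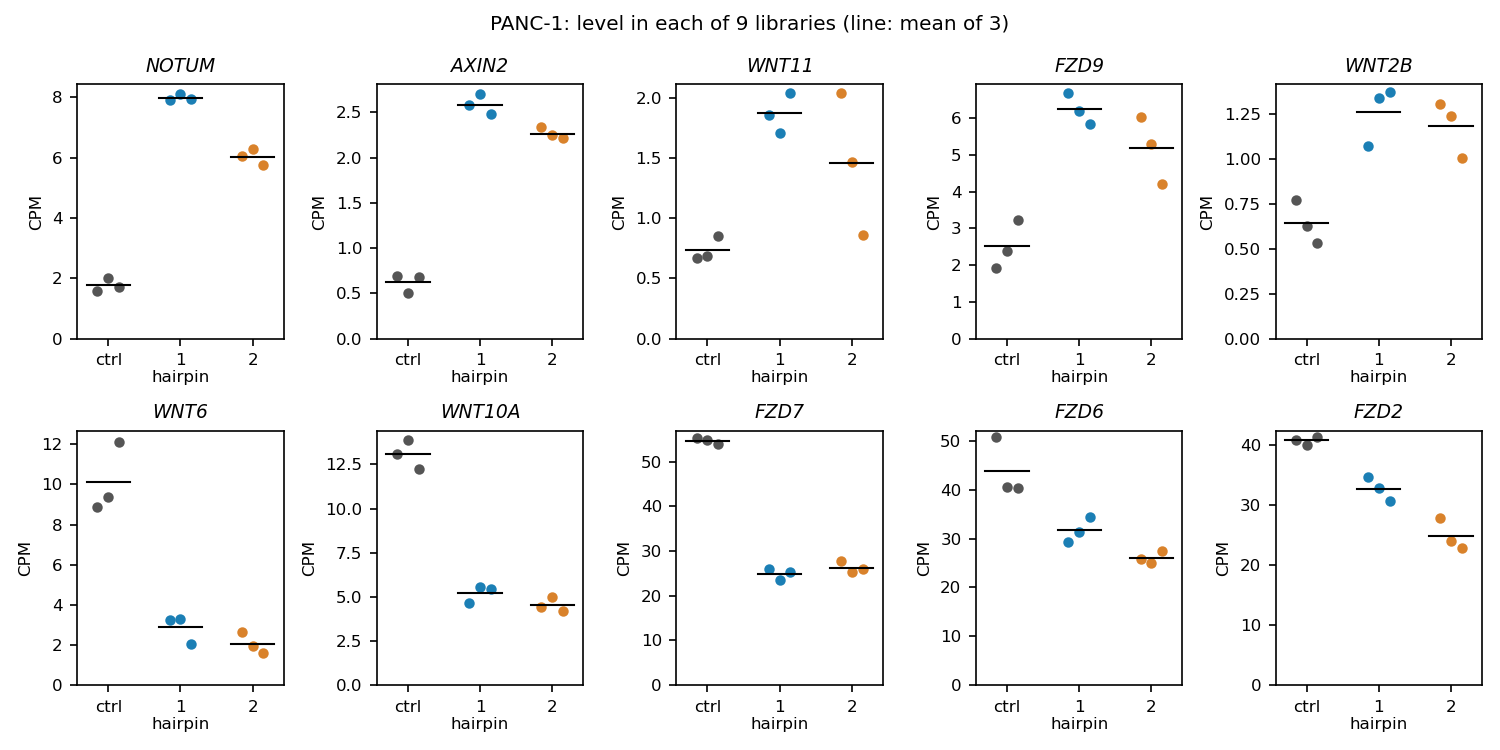
CPM in each of the 9 PANC-1 libraries for the 5 largest rises (upper row) and the 5 largest falls (lower row) among the members, with a line at the mean of 3. The control libraries do not overlap with those of the other arms, though for WNT11 the highest control (0.857 CPM) is close to the lowest library labelled hairpin 2 (0.862 CPM), and for FZD2 hairpin 1 lies between the control and the libraries labelled hairpin 2.

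Of 9 tested Frizzled receptors 2 rose and 4 fell in both arms (66.7% each, where 30.2% and 33.4% of all genes passed). FZD9 read 1.92, 2.39 and 3.22 CPM in the controls, 6.68, 6.20 and 5.85 CPM with hairpin 1 and 6.04, 5.30 and 4.22 CPM in libraries labelled hairpin 2. FZD9 rose, with log2 fold changes of 1.32 (SE 0.199, edgeR adjusted p = 0.00123) with hairpin 1 and 1.05 (SE 0.200, edgeR adjusted p = 0.00396) in libraries labelled hairpin 2. FZD8 rose (log2 fold changes 0.89 and 0.64), from 3.10 ± 0.343 CPM. FZD7, one of the pair of receptors highest in this line, read 55.3, 54.8 and 54.0 CPM in the controls, 26.0, 23.4 and 25.3 CPM with hairpin 1 and 27.7, 25.3 and 25.9 CPM in libraries labelled hairpin 2. FZD7 fell, with log2 fold changes of -1.13 (SE 0.0790, edgeR adjusted p = 1.58e-05) with hairpin 1 and -1.06 (SE 0.0789, edgeR adjusted p = 2.11e-05) in libraries labelled hairpin 2. FZD2, the other, read 40.9, 40.1 and 41.4 CPM in the controls, 34.6, 32.8 and 30.6 CPM with hairpin 1 and 27.8, 24.0 and 22.9 CPM in libraries labelled hairpin 2, and fell, with log2 fold changes of -0.32 (SE 0.0936, edgeR adjusted p = 0.0291) with hairpin 1 and -0.71 (SE 0.0943, edgeR adjusted p = 0.000547) in libraries labelled hairpin 2. FZD6 read 50.8, 40.7 and 40.3 CPM in the controls, 29.3, 31.3 and 34.5 CPM with hairpin 1 and 25.8, 25 and 27.5 CPM in libraries labelled hairpin 2, and fell, with log2 fold changes of -0.47 (SE 0.112, edgeR adjusted p = 0.0120) with hairpin 1 and -0.75 (SE 0.112, edgeR adjusted p = 0.00112) in libraries labelled hairpin 2. In each of these receptors the libraries of both hairpin arms lay on 1 side of all controls. FZD6 shares 138 exonic bases with BAALC-AS1 on the opposite strand and FZD8 shares 81 with MIR4683 on the same strand. FZD1 fell (log2 fold changes -0.42 and -0.49), and FZD3, FZD4 and FZD5 did not pass. The coreceptor LRP5 rose (log2 fold changes 0.60 and 0.74), though control replicate 1 (322 CPM) overlapped with hairpin 1, and LRP6 did not pass.

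Downstream, 3 of the 4 TCF/LEF factors fell in both arms (75% each, where 30.2% and 33.4% of all genes passed). TCF7 read 35.7, 33.8 and 32.0 CPM in the controls, 19.4, 26.8 and 25.7 CPM with hairpin 1 and 23.2, 22.9 and 21.6 CPM in libraries labelled hairpin 2, and fell, with log2 fold changes of -0.50 (SE 0.121, edgeR adjusted p = 0.0136) with hairpin 1 and -0.58 (SE 0.121, edgeR adjusted p = 0.00617) in libraries labelled hairpin 2. TCF7L1, mostly a repressor, fell (log2 fold changes -0.39 and -0.62), and TCF7L2, a main partner of beta-catenin in epithelia, fell (log2 fold changes -0.35 and -0.41). LEF1 read 1.13, 1.08 and 1.12 CPM in the controls, 1.40, 1.36 and 1.47 CPM with hairpin 1 and 1.52, 1.61 and 1.29 CPM in libraries labelled hairpin 2, all above the controls, and did not pass (edgeR adjusted p = 0.127 and 0.0740). The core genes CTNNB1, APC and AXIN1 did not pass. No member passed between the arms (all genes 0.106%, of which 0.0264% higher and 0.0793% lower), where 7 had an unadjusted p under 0.05 and DESeq2 called 2. Fitted alone with its control, hairpin 1 had 12 calls in place of 20. TCF7, FZD6, FZD2, FZD1, TCF7L1, TCF7L2, LRP5 and WNT7B were the calls lost with hairpin 1 in that fit. Leaving out 1 library also ended calls: WNT11 in libraries labelled hairpin 2 without hairpin 2 replicate 1 or 2 or control replicate 2 or 3, WNT2B in libraries labelled hairpin 2 without hairpin 2 replicate 1 or 2 or control replicate 3, and FZD2, FZD1, LRP5 and WNT7B with hairpin 1 without any of several libraries, control replicates 2 and 3 among them.

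With the WiDr hairpins, 20 of 32 members passed with hairpin 1 (6 higher, 14 lower), or 62.5% against 48% of all genes (24.1% higher, 23.9% lower). With hairpin 2, 19 passed (8 higher, 11 lower), or 59.4% against 44.7% (22.2% higher, 22.5% lower). The median log2 fold change was -0.10 and -0.03 over the members against 0.00 and -0.01 over all genes. Between the hairpins 16 members differed, 11 higher with hairpin 2 and 5 lower (50%, all genes 42.4%, of which 20.6% higher and 21.8% lower). The higher ribosomal RNA share of hairpin 2 moves with its values, and with these genes taken out the counts were again 20 and 19. As in PANC-1, that step cannot show what else goes with the share. The 3 acinar markers summed to 195 to 207 CPM in the controls, 217 to 234 with hairpin 1 and 142 to 150.3 with hairpin 2, and the 6 basal markers to 116 to 121, 165 to 202 and 154 to 164 CPM. In the controls the basal sum was mostly EGFR (53.1 CPM) and GABRP (50.05 CPM), with KRT5, KRT14 and KRT6B near 0. The 4 general epithelial markers summed to 5044 to 5318, 5579 to 6014 and 4792 to 5041 CPM. These sums are not corrected for the higher ribosomal RNA share of hairpin 2, which lowers them. Their part in the results was not tested.

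Of the 5 feedback inhibitors 3 fell with each hairpin and none rose (60% each, where 48% and 44.7% of all genes passed). NKD1 (chromosome 16, 50548330 to 50649249) read 18.2, 19.9 and 19.8 CPM in the controls, 4.32, 6.14 and 6.07 CPM with hairpin 1 and 12.1, 9.42 and 12.4 CPM with hairpin 2. NKD1 fell, with log2 fold changes of -1.80 (SE 0.126, edgeR adjusted p = 3.48e-08) with hairpin 1 and -0.78 (SE 0.116, edgeR adjusted p = 7.29e-05) with hairpin 2. The 3 arms did not overlap, and hairpin 1 was the lowest. AXIN2 read 42.0, 43.6 and 42.2 CPM in the controls, 26.0, 25.2 and 25.4 CPM with hairpin 1 and 36.02, 34.0 and 37.6 CPM with hairpin 2, and fell, with log2 fold changes of -0.74 (SE 0.0598, edgeR adjusted p = 7.71e-08) with hairpin 1 and -0.25 (SE 0.0585, edgeR adjusted p = 0.00254) with hairpin 2. Here too hairpin 1 was lowest and hairpin 2 lay between it and the controls, a difference of 0.49 (SE 0.0601, edgeR adjusted p = 1.30e-05). ZNRF3 read 77.1, 74.2 and 74.8 CPM in the controls, 60.0, 66.5 and 68.9 CPM with hairpin 1 and 83.7, 80.5 and 81.4 CPM with hairpin 2. It fell with hairpin 1 (log2 fold change -0.21, SE 0.0557, edgeR adjusted p = 0.00571) and gave 0.12 (SE 0.0552, edgeR adjusted p = 0.0912) with hairpin 2, where all libraries lay above the controls. RNF43, the other membrane ligase, read 168, 181 and 167 CPM in the controls, 154, 176 and 175 CPM with hairpin 1 and 163, 156 and 157 CPM with hairpin 2. It overlapped with hairpin 1 and did not pass with either (-0.03 and -0.12). LGR5 read 4.16, 3.57 and 3.75 CPM in the controls, 4.29, 4.05 and 4.67 CPM with hairpin 1 and 3.53, 3.14 and 2.44 CPM with hairpin 2, gave 0.18 and -0.33 without passing, and differed between the hairpins (log2 fold change -0.51, SE 0.147, edgeR adjusted p = 0.0110). NKD2, a relative of NKD1, fell with hairpin 2 (-0.51) and gave -0.15 with hairpin 1.

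The secreted inhibitors were higher where they moved. DKK1 read 14.6, 15.7 and 16.9 CPM in the controls, 28.9, 23.8 and 23.5 CPM with hairpin 1 and 22.8, 22.8 and 23.7 CPM with hairpin 2. DKK1 rose, with log2 fold changes of 0.69 (SE 0.0852, edgeR adjusted p = 7.34e-06) with hairpin 1 and 0.56 (SE 0.0854, edgeR adjusted p = 7.57e-05) with hairpin 2, without overlap with the controls. NOTUM read 0.252, 0.778 and 0.794 CPM in the controls, 0.513, 0.771 and 0.577 CPM with hairpin 1 and 1.18, 1.27 and 2.07 CPM with hairpin 2, from 8 to 62 counts per library. It gave 0.02 with hairpin 1 and rose with hairpin 2 (log2 fold change 1.28, SE 0.350, edgeR adjusted p = 0.00770). The hairpin 2 libraries were the highest.

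Of 6 tested ligands 1 rose and 4 fell with hairpin 1, and 1 rose and 2 fell with hairpin 2. These are 83.3% and 50%, where 48% and 44.7% of all genes passed. WNT11 (chromosome 11, 76186325 to 76210736) read 8.16, 9.08 and 8.23 CPM in the controls, 2.60, 3.05 and 2.53 CPM with hairpin 1 and 1.70, 2.05 and 1.82 CPM with hairpin 2. WNT11 fell, with log2 fold changes of -1.64 (SE 0.127, edgeR adjusted p = 4.84e-08) with hairpin 1 and -2.18 (SE 0.132, edgeR adjusted p = 3.02e-09) with hairpin 2, and the arms did not overlap. WNT4, a ligand of several branches, read 2.33, 2.48 and 2.16 CPM in the controls, 1.28, 1.06 and 0.903 CPM with hairpin 1 and 1.54, 1.93 and 2.00 CPM with hairpin 2. It fell with hairpin 1 (log2 fold change -1.12, SE 0.202, edgeR adjusted p = 0.000278) and gave -0.35 (SE 0.189, edgeR adjusted p = 0.147) with hairpin 2. WNT2B read 3.31, 3.37 and 3.62 CPM in the controls, 1.83, 1.80 and 2.28 CPM with hairpin 1 and 2.39, 2.15 and 2.07 CPM with hairpin 2, and fell, with log2 fold changes of -0.79 (SE 0.156, edgeR adjusted p = 0.000613) with hairpin 1 and -0.64 (SE 0.154, edgeR adjusted p = 0.00320) with hairpin 2, below all controls and with the overlap with ST7L given above. WNT10A read 6.33, 8.16 and 6.89 CPM in the controls, 10.2, 10.6 and 10.3 CPM with hairpin 1 and 9.31, 9.71 and 8.88 CPM with hairpin 2. WNT10A rose, with log2 fold changes of 0.54 (SE 0.0982, edgeR adjusted p = 0.000305) with hairpin 1 and 0.38 (SE 0.0986, edgeR adjusted p = 0.00487) with hairpin 2, above all controls. WNT7B fell (log2 fold change -0.42) with hairpin 1 and gave -0.08 with hairpin 2. WNT3 did not pass with either.

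Among receptors FZD2 read 2.14, 2.65 and 3.30 CPM in the controls, 3.63, 2.57 and 2.73 CPM with hairpin 1 and 4.67, 5.79 and 4.73 CPM with hairpin 2. It gave 0.13 with hairpin 1 and rose with hairpin 2 (log2 fold change 0.92, SE 0.173, edgeR adjusted p = 0.000493), whose libraries were the highest. FZD7 fell (log2 fold changes -0.57 and -0.49), and so did FZD4 (log2 fold changes -0.44 and -0.44), which shares 1399 exonic bases with PRSS23 on the opposite strand, so reads of that pair cannot be told apart. FZD3 (-0.31), FZD6 (-0.21) and FZD8 (-1.02, from 0.873 ± 0.165 CPM) fell and FZD5 rose (0.22) with hairpin 1 and did not pass with hairpin 2. FZD1 did not pass. LRP5 fell (log2 fold changes -0.79 and -0.23), and LRP6 did not pass. LGR6, an R-spondin receptor, read 2.33, 2.45 and 1.97 CPM in the controls, 2.82, 2.60 and 2.26 CPM with hairpin 1 and 1.44, 1.37 and 0.946 CPM with hairpin 2. It gave 0.18 with hairpin 1 and fell with hairpin 2 (log2 fold change -0.83, SE 0.199, edgeR adjusted p = 0.00316). LGR4, the most abundant R-spondin receptor here, rose with hairpin 2 (0.37).

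The TCF/LEF factors moved in different directions. TCF7 read 30.3, 30.4 and 28.5 CPM in the controls, 36.9, 42.5 and 41.5 CPM with hairpin 1 and 27.5, 23.8 and 26.1 CPM with hairpin 2. It rose with hairpin 1 (log2 fold change 0.44, SE 0.0715, edgeR adjusted p = 0.000106) and fell with hairpin 2 (log2 fold change -0.21, SE 0.0729, edgeR adjusted p = 0.0276). The arms did not overlap, and the hairpins differed by -0.65 (SE 0.0720, edgeR adjusted p = 4.58e-06). TCF7 shares 210 exonic bases with SKP1 on the opposite strand. The fall with hairpin 2 did not hold without replicate 2 or 3 of that arm or control replicate 1 or 2. TCF7L2 rose (log2 fold changes 0.32 and 0.33), and TCF7L1 fell (log2 fold changes -1.04 and -1.31) from 0.768 ± 0.273 CPM. LEF1 had at most 8 counts in a library and was not tested. Of the core genes, APC rose (log2 fold changes 0.21 and 0.35) and CTNNB1 rose with hairpin 2 (0.13), while AXIN1 did not pass.

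With the WiDr guides, 25 of 34 members passed with guide 1 (6 higher, 19 lower), or 73.5% against 41.6% of all genes, and 17 with guide 2 (2 higher, 15 lower), or 50% against 25.5%. Lower members outnumbered higher ones, while over all genes 21.4% were higher and 20.3% lower with guide 1 and 14.1% and 11.3% with guide 2. The median log2 fold change of the members was -0.27 and -0.20 against -0.00 and 0.02 over all genes. Between the guides 17 members differed, 8 higher with guide 2 and 9 lower (50%, all genes 34.4%, of which 17.4% higher and 17.1% lower). Grouped by the genotype field the counts were 9 and 0, the second resting on 1 library, and with all 6 targeting guide libraries as 1 arm 14 members passed. With all 36 libraries in 1 fit guide 2 had 8.

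The feedback inhibitors that passed were lower, 4 of 5 with guide 1 and 3 of 5 with guide 2. These are 80% and 60%, where 41.6% and 25.5% of all genes passed. NKD1 read 87.4, 84.4 and 86.6 CPM in the controls, 41.4, 31.4 and 32.1 CPM with guide 1 and 26.2, 19.2 and 18.2 CPM with guide 2. NKD1 fell, with log2 fold changes of -1.31 (SE 0.141, edgeR adjusted p = 9.41e-05) with guide 1 and -2.02 (SE 0.147, edgeR adjusted p = 2.52e-05) with guide 2. The arms did not overlap, and the guide 2 libraries came near the 18.2 to 19.9 CPM of the hairpin control. AXIN2 read 84.0, 79.4 and 80.3 CPM in the controls, 57.6, 54.8 and 57.3 CPM with guide 1 and 76.0, 72.2 and 78.6 CPM with guide 2. It fell with guide 1 (log2 fold change -0.52, SE 0.0523, edgeR adjusted p = 6.27e-07), while guide 2 gave -0.10 (SE 0.0518, edgeR adjusted p = 0.150). All guide 1 libraries lay below the rest. ZNRF3 read 159, 154 and 165 CPM in the controls, 106, 99.9 and 97.7 CPM with guide 1 and 139.6, 127 and 124 CPM with guide 2, and fell, with log2 fold changes of -0.66 (SE 0.0556, edgeR adjusted p = 9.75e-08) with guide 1 and -0.29 (SE 0.0552, edgeR adjusted p = 0.00110) with guide 2. RNF43 read 281, 280.2 and 292 CPM in the controls, 229, 215 and 213 CPM with guide 1 and 245, 234 and 238 CPM with guide 2, and fell, with log2 fold changes of -0.38 (SE 0.0467, edgeR adjusted p = 6.17e-06) with guide 1 and -0.25 (SE 0.0466, edgeR adjusted p = 0.00102) with guide 2. For both ligases guide 1 was lowest, guide 2 lay between and the arms did not overlap. RNF43 shares 143 exonic bases with SUPT4H1 on the same strand.
LGR5 read 7.12, 7.87 and 8.55 CPM in the controls, 4.29, 4.18 and 4.48 CPM with guide 1 and 5.25, 6.10 and 6.03 CPM with guide 2, and fell, with log2 fold changes of -0.86 (SE 0.108, edgeR adjusted p = 7.41e-06) with guide 1 and -0.44 (SE 0.106, edgeR adjusted p = 0.00639) with guide 2. TCF7 read 49.6, 49.6 and 55.6 CPM in the controls, 33.7, 35.5 and 33.2 CPM with guide 1 and 41.7, 46.8 and 44.6 CPM with guide 2. TCF7 fell, with log2 fold changes of -0.59 (SE 0.0639, edgeR adjusted p = 1.41e-06) with guide 1 and -0.22 (SE 0.0632, edgeR adjusted p = 0.0183) with guide 2, and the second of these did not hold without guide 2 replicate 1 or control replicate 3. Guide 1 was again lowest for both genes. LEF1 read 0.733, 0.759 and 0.685 CPM in the controls, 0.340, 0.320 and 0.137 CPM with guide 1 and 0.118, 0.151 and 0.291 CPM with guide 2, or 4 to 25 counts per library. LEF1 passed the filter on low counts only through its control libraries, so it had to differ: its values are a description, and the counts of 25 and 17 each hold it. Its exons share 279 bases with the antisense gene LEF1-AS1. NKD2 did not pass.

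**Figure D4:**
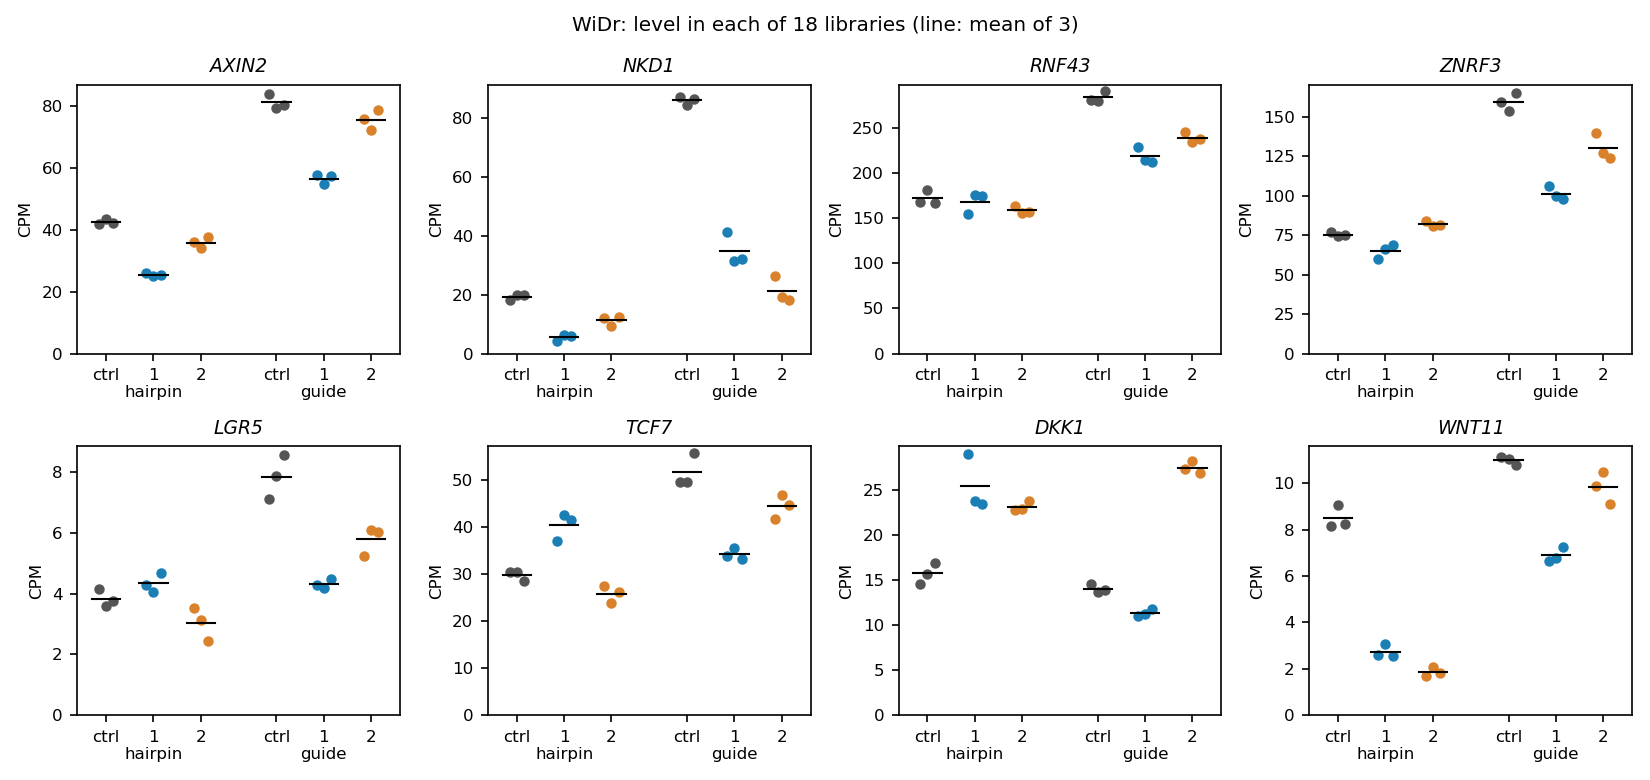
CPM of 8 members in the 18 WiDr libraries, hairpin experiment on the left and guide experiment on the right of each panel, with a line at the mean of 3. The controls of the experiments start at different levels for AXIN2, NKD1, RNF43 and ZNRF3, and DKK1 is lower with guide 1 and higher with guide 2 than its control.

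The secreted inhibitors split. DKK1 read 14.5, 13.6 and 13.9 CPM in the controls, 10.95, 11.2 and 11.8 CPM with guide 1 and 27.3, 28.2 and 26.8 CPM with guide 2. It fell with guide 1 (log2 fold change -0.31, SE 0.0704, edgeR adjusted p = 0.00210) and rose with guide 2 (log2 fold change 0.97, SE 0.0670, edgeR adjusted p = 2.85e-08). The libraries of each title lay close together and apart from those of the other, a difference of 1.28 (SE 0.0677, edgeR adjusted p = 3.59e-10). Grouped by the genotype field the values were 0.58 and -0.25, neither of which passed. NOTUM read 2.87, 3.51 and 3.62 CPM in the controls, 3.64, 3.45 and 3.41 CPM with guide 1 and 2.51, 2.99 and 2.30 CPM with guide 2, gave 0.07 and -0.36 without passing and was lower with guide 2 than with guide 1 (log2 fold change -0.43, SE 0.146, edgeR adjusted p = 0.0306). DKK1 shares 212 exonic bases with PRKG1-AS1 on the opposite strand.

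With guide 1, 3 of the 7 tested ligands rose and 2 fell, and with guide 2 1 rose and 1 fell. These are 71.4% and 28.6%, where 41.6% and 25.5% of all genes passed. WNT7B read 38.1, 39.9 and 45.7 CPM in the controls, 64.6, 62.8 and 61.0 CPM with guide 1 and 46.7, 45.3 and 49.3 CPM with guide 2. WNT7B rose, with log2 fold changes of 0.61 (SE 0.0654, edgeR adjusted p = 1.42e-06) with guide 1 and 0.19 (SE 0.0661, edgeR adjusted p = 0.0413) with guide 2. Guide 1 stood apart, guide 2 overlapped with the controls, and its call did not hold in several alternatives, among them DESeq2. WNT10A read 6.27, 6.83 and 7.02 CPM in the controls, 10.4, 10.5 and 10.5 CPM with guide 1 and 8.23, 7.07 and 8.71 CPM with guide 2. It rose with guide 1 (log2 fold change 0.64, SE 0.0953, edgeR adjusted p = 4.15e-05) and gave 0.26 (SE 0.0975, edgeR adjusted p = 0.0633) with guide 2, all above the controls. WNT4 read 1.08, 1.23 and 0.979 CPM in the controls, 1.46, 2.24 and 1.83 CPM with guide 1 and 1.56, 0.936 and 1.75 CPM with guide 2. It rose with guide 1 (log2 fold change 0.76, SE 0.244, edgeR adjusted p = 0.0194), while guide 2 overlapped with the control (0.37). The call of WNT4 with guide 1 was lost without guide 1 replicate 2 or control replicate 1 or 3. WNT11 read 11.1, 11.1 and 10.8 CPM in the controls, 6.63, 6.77 and 7.27 CPM with guide 1 and 9.88, 10.5 and 9.09 CPM with guide 2, and fell with guide 1 (-0.67). WNT3 fell with guide 1 (-0.52) and WNT2B with guide 2 (-0.52), and both calls were lost with DESeq2 and without any of several single libraries. WNT10B did not pass.

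More receptors fell than rose. FZD3 read 13.9, 12.1 and 13.7 CPM in the controls, 8.68, 7.82 and 7.84 CPM with guide 1 and 6.93, 8.06 and 6.12 CPM with guide 2. FZD3 fell, with log2 fold changes of -0.71 (SE 0.101, edgeR adjusted p = 2.84e-05) with guide 1 and -0.91 (SE 0.103, edgeR adjusted p = 7.93e-06) with guide 2. FZD1 read 3.22, 3.83 and 3.26 CPM in the controls, 1.91, 1.58 and 2.32 CPM with guide 1 and 2.15, 1.66 and 1.69 CPM with guide 2, and fell, with log2 fold changes of -0.83 (SE 0.178, edgeR adjusted p = 0.00123) with guide 1 and -0.90 (SE 0.180, edgeR adjusted p = 0.00166) with guide 2. FZD2 read 7.97, 7.78 and 7.77 CPM in the controls, 3.98, 4.69 and 4.78 CPM with guide 1 and 4.81, 3.96 and 6.70 CPM with guide 2, and fell, with log2 fold changes of -0.80 (SE 0.149, edgeR adjusted p = 0.000436) with guide 1 and -0.60 (SE 0.148, edgeR adjusted p = 0.00746) with guide 2. For these 3 receptors every targeting library lay below every control. Of 8 tested Frizzled receptors 1 rose and 5 fell with guide 1 and 4 fell with guide 2. These are 75% and 50%, where 41.6% and 25.5% of all genes passed. FZD7 fell (log2 fold changes -0.21 and -0.25), calls that were lost without control replicate 1 or 3, and FZD4 (-0.29) fell and FZD5 (0.24) rose with guide 1. FZD6 and FZD8 did not pass. LRP6 fell (log2 fold changes -0.49 and -0.45) and LRP5 fell with guide 2 (-0.19), a call lost without any of several single libraries, guide 2 replicate 2 and control replicates 2 and 3 among them. LGR6 fell with guide 1 (-0.35), and LGR4 did not pass. TCF7L2 read 96.6, 91.9 and 96.0 CPM in the controls, 120.0, 119 and 117 CPM with guide 1 and 98.1, 100.4 and 95.7 CPM with guide 2, and rose with guide 1 (log2 fold change 0.32, SE 0.0469, edgeR adjusted p = 3.38e-05). TCF7L1 did not pass. Of the core genes APC (-0.24 and -0.29) and CTNNB1 (-0.26 and -0.14) fell with each guide and AXIN1 rose with guide 1 (0.17).

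Markers of intestinal and acinar cells moved with the guides. The summed level of the 7 intestinal markers was 710 to 739 CPM in the controls, 1123 to 1244 CPM with guide 1 and 924 to 938 CPM with guide 2. The 3 acinar markers, almost all PRSS1, summed to 239 to 242, 409 to 455 and 225 to 233 CPM. Their part in these results was not tested.

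Whether guides and hairpins gave the same effect in WiDr was tested as the mean of both guides against their control minus the mean of both hairpins against theirs, in a fit of 18 libraries. Of 35 members 19 differed (54.3%, all genes 41.6%), 8 higher and 11 lower with the guides (all genes 22% higher, 19.6% lower). WNT11 differed most clearly: the mean change was -1.91 with hairpins and -0.42 with guides, a difference of 1.49 (SE 0.118, edgeR adjusted p = 9.15e-10). WNT4 (-0.73 with hairpins, 0.56 with guides) and WNT7B (-0.25 and 0.40) differed by 1.29 (SE 0.273, edgeR adjusted p = 0.000578) and 0.65 (SE 0.0753, edgeR adjusted p = 3.49e-07). FZD2 (0.52 and -0.70) and TCF7 (0.11 and -0.41) were lower with the guides, by -1.23 (SE 0.212, edgeR adjusted p = 6.78e-05) and -0.53 (SE 0.0834, edgeR adjusted p = 2.34e-05). ZNRF3 (-0.04 and -0.47) and LGR5 (-0.07 and -0.65) were lower too, by -0.43 (SE 0.0674, edgeR adjusted p = 1.79e-05) and -0.58 (SE 0.149, edgeR adjusted p = 0.00312). NKD1 was low in both experiments (-1.29 and -1.66), and its difference of -0.38 (SE 0.179, edgeR adjusted p = 0.106) did not pass. WNT10A was higher in both (0.46 and 0.45), with a difference of -0.01 (SE 0.118, edgeR adjusted p = 0.935). DKK1 averages a fall and a rise with the guides, so its mean of 0.33 describes neither guide. The hairpin means of TCF7, ZNRF3 and LGR5 likewise average changes of opposite sign, given above, and describe neither hairpin.

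**Figure D5:**
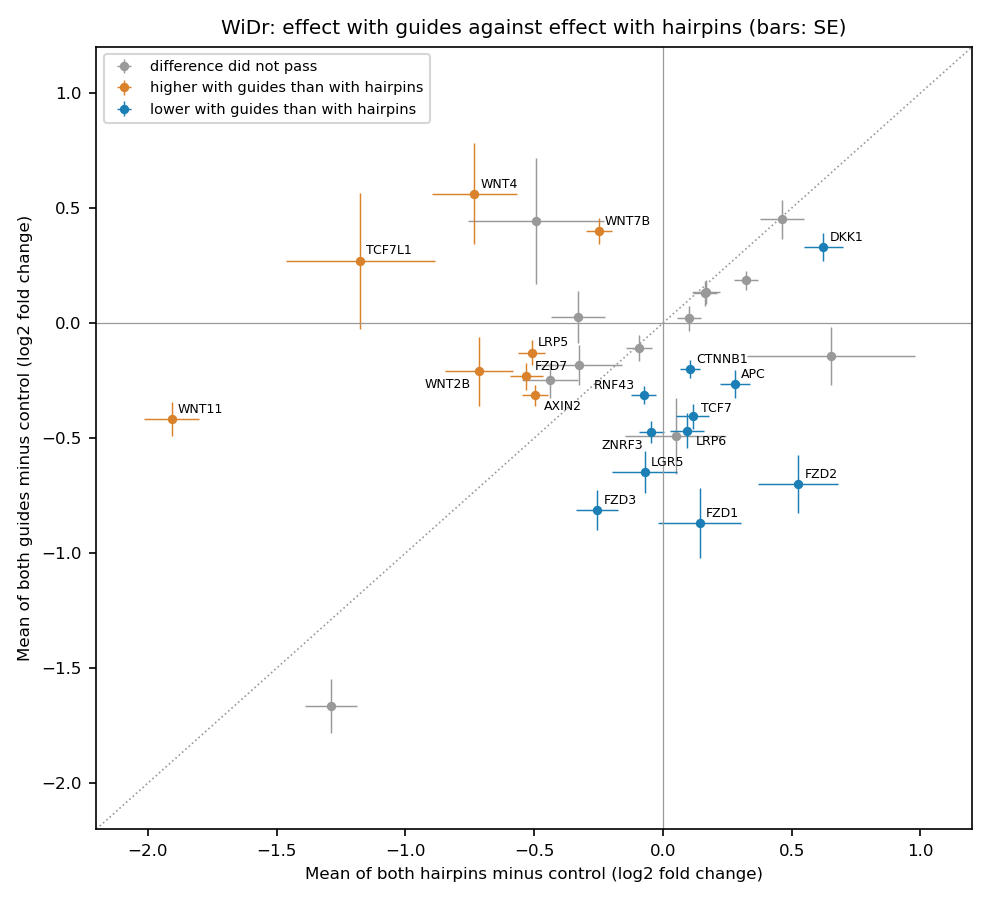
Mean log2 fold change of both guides (vertical) against that of both hairpins (horizontal) for members tested in both WiDr experiments, with bars of 1 SE and a dotted line of equal effect. Named members differed between the experiments, and the grey point at the lower left is NKD1, low in both.

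Other genes of the pathway were counted from 7 lists. In PANC-1 all 3 genes of the list of ligand processing and carriers, PORCN, WLS and the member NOTUM, rose in both arms, where 16.2% and 16.7% of all genes were higher. WLS, which carries Wnt proteins to the cell surface, went from 3.98 ± 0.899 to 25.8 ± 1.87 and 19.3 ± 0.430 CPM, mean ± SD of 3. WLS rose, with log2 fold changes of 2.70 (SE 0.154, edgeR adjusted p = 5.45e-06) with hairpin 1 and 2.28 (SE 0.153, edgeR adjusted p = 1.14e-05) in libraries labelled hairpin 2. Of 6 tested R-spondins and other receptors 3 rose and 2 fell in both arms, led by ROR2, a receptor of WNT5A, from 1.34 ± 0.0988 to 9.78 ± 1.07 and 9.83 ± 0.723 CPM (2.87 and 2.87). Of 3 tested secreted antagonists 2 rose with hairpin 1 and 1 in libraries labelled hairpin 2, and SFRP1, which binds Wnt proteins, rose (log2 fold changes 2.30 and 2.42) from 12.9 ± 0.446 CPM. PYGO1, a cofactor of beta-catenin, read 0.223 ± 0.148 CPM in the controls, 1.15 ± 0.429 with hairpin 1 and 0.774 ± 0.424 in libraries labelled hairpin 2, and TNFRSF19 read 0.130 ± 0.113, 0.505 ± 0.116 and 0.190 ± 0.0723 CPM. Both entered the test through the arms in which they were high, so their values are a description. The counts that follow hold PYGO1 among the cofactors in both arms and TNFRSF19 among the target genes with hairpin 1. Of 14 tested target genes 4 rose and 1 fell with hairpin 1 and 3 rose and 3 fell in libraries labelled hairpin 2. In the cytoplasmic relay 4 and 3 of 14 rose, among the nuclear cofactors 2 and 2 of 11, and in the planar polarity arm 2 and 4 of 7, and none fell. With 30.2% and 33.4% of all genes passing, the shares of 28.6% and 21.4% in the relay, 18.2% and 18.2% among cofactors and 35.7% and 42.9% among target genes were near or below the background and are no result about these lists.

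In MDA-MB-468 WLS fell (log2 fold changes -0.44 and -0.45). CXXC4, a Dishevelled-binding inhibitor, rose (log2 fold changes 2.08 and 1.38) from 0.367 ± 0.127 CPM, and SOSTDC1, a secreted antagonist, rose (log2 fold changes 2.53 and 2.16). Of 11 tested target genes 1 rose and 1 fell with hairpin 1 and 2 rose with hairpin 2 (18.2% each, all genes 2.27% and 3.49%), counts too small to read against the background. MMP7, a matrix protease, went from 8.99 ± 1.24 to 15.7 ± 0.253 and 32.2 ± 4.002 CPM, and CCND1, a cyclin, fell with hairpin 1 (-0.54).

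With the WiDr hairpins, of 17 tested target genes 6 rose and 6 fell with hairpin 1 and 2 rose and 6 fell with hairpin 2, or 70.6% and 47.1% against 48% and 44.7% of all genes, the second near the background. TNFRSF19 read 0.655 ± 0.0873 CPM in the controls, 0.0214 ± 0.0371 with hairpin 1 and 0.135 ± 0.199 with hairpin 2, and it entered the test through its controls, so these values are a description. The 6 falls with each hairpin, and the shares above, hold it. EPHB2, a crypt receptor, fell with hairpin 2 from 14.3 ± 0.196 to 5.18 ± 0.118 CPM (-1.47). TLE2, a corepressor of TCF factors, fell (log2 fold changes -1.29 and -0.50). CDX1 rose with hairpin 1 (0.97) from under 1 CPM. FGF18, at 7 to 20 counts per library, gave 0.98 with hairpin 1 and is given as a value, though the 6 rises with hairpin 1 hold it. With the guides 3 rose and 7 fell with guide 1 and 4 rose and 8 fell with guide 2, or 58.8% and 70.6% of these 17 against 41.6% and 25.5% of all genes. SP5, a target gene that represses the pathway, went from 13.3 ± 1.38 to 6.46 ± 0.998 and 10.4 ± 0.618 CPM (-1.05 and -0.35). PTK7, a receptor of the planar polarity branch, went from 347 ± 15.1 to 171 ± 5.87 and 210.1 ± 9.12 CPM (-1.02 and -0.72), and of 5 tested genes of its receptor list 4 passed with guide 1, all lower. KREMEN2, a coreceptor of DKK1, fell with guide 1 (-1.04), SOSTDC1 with guide 1 (-1.21, from 1.08 ± 0.222 CPM) and TNFRSF19 with guide 2 (-1.56).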

How the data were processed

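RNA of 36 libraries from 3 cell lines was quantified per gene. The authors aligned reads with Bowtie2 2.1.0 and RSEM 1.2.15 on hg38, per the submitters' processing notes, and deposited 1 table of expected counts. Neither annotation nor strand setting is given in the sources used here. Expected counts were rounded. In each experiment of 9 libraries, genes with enough counts (filterByExpr, minimum 10) were TMM-scaled and tested by edgeR 4.0.16 (limma 3.58.1, R 4.3.3) with 3 arms and no covariate, adjusted by Benjamini-Hochberg over all genes tested. CPM values are TMM-scaled. The guides and hairpins in WiDr were compared in 1 fit of 18 libraries and the controls in 1 fit of 12. Exon lengths came from GENCODE 29 and promoters from RefSeq.

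Groups were taken from the titles. The members and lists were chosen with earlier results of these data known. Every member is named. Values in each library are given for the 5 largest rises and 5 largest falls per experiment that passed with a mean of at least 1 CPM in at least 1 arm, and for the feedback genes, and up to 5 genes of the wider lists are named per experiment. Alternatives were DESeq2 1.42.0, RLE factors, no filter, all libraries in 1 fit, each construct alone, no ribosomal RNA genes, other guide groupings, a replicate block and each replicate left out. The fits were tested on simulated data. Replicates differed by more than sampling noise (chi-square per degree of freedom 3.50 to 188), so each counted as 1 sample. Values of the targeted gene itself are not reported here.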

Additional observations from a re-analysis of the deposited data

Results flagged for a closer look

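In WiDr 19 members had a mean effect with the guides that differed from that with the hairpins, by the edgeR test of the difference at an adjusted p of 0.05. The values are log2 fold changes with guides minus those with hairpins. Among ligands the differences were 1.49 for WNT11, 1.29 for WNT4, 0.65 for WNT7B and 0.50 for WNT2B, all higher with the guides. Frizzled receptors differed by -1.23 for FZD2, -1.02 for FZD1, -0.56 for FZD3 and 0.30 for FZD7, and the coreceptors by -0.57 for LRP6 and 0.38 for LRP5. LGR5 differed by -0.58. Feedback and secreted inhibitors differed by -0.43 for ZNRF3, -0.24 for RNF43, 0.18 for AXIN2 and -0.30 for DKK1. TCF7L1, at 8 to 34 counts per library with the hairpins, differed by 1.44 and TCF7 by -0.53. The core genes APC and CTNNB1 differed by -0.55 and -0.31. The hairpin means of TCF7, ZNRF3 and LGR5 and the guide mean of DKK1 average changes of opposite sign, as given above. The controls of the experiments differed as well, and the part of that in these values was not tested.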

How the results depend on the processing

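Over 300 called values of single members and 4755 recomputed values, 4445 kept direction and side of the threshold, 306 lost the threshold and 4 changed sign. Those 4 come from the conflicting guide labels: with all targeting guide libraries as 1 arm DKK1 was 0.47, and grouped by the genotype field DKK1 was 0.58 with guide 1 and -0.25 with guide 2 and WNT2B was 0.13 with guide 2. Counts of members that passed moved by over 1.5 times as follows. In MDA-MB-468 they were 5 and 6 for hairpins 1 and 2 with all 36 libraries in 1 fit, 0 for hairpin 2 fitted alone with its control, and 1 between the hairpins by DESeq2. In PANC-1 they were 12 for hairpin 1 fitted alone and 2 between the arms by DESeq2. With the guides they were 14 (1 arm) and 9 (genotype field) for guide 1, and 8 (all 36 libraries) and 0 (genotype field) for guide 2. The causes were not tested.

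With 1 library left out, counts ranged from 0 to 2 and 0 to 4 for hairpins 1 and 2 in MDA-MB-468 and from 0 to 1 between the arms of PANC-1 (1 without control replicate 1). The remaining counts stayed within 1.5 times their value. With a replicate block the counts were 2, 2 and 0 in MDA-MB-468 (hairpin 1, hairpin 2, between them), 15, 17 and 0 in PANC-1, 20, 17 and 16 with the WiDr hairpins and 25, 18 and 18 with the guides. Deviations of same-numbered libraries from their arm means correlated at -0.22 to 0.64 in MDA-MB-468, -0.67 to 0.13 in PANC-1, -0.15 to 0.07 with the WiDr hairpins and -0.05 to 0.13 with the guides, so in no experiment did every pair go together, and the numbers were not taken as pairs. Members with few counts, such as LEF1, NOTUM and WNT11 where they lie near 1 CPM or below, are limited by depth.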
